A study of Homo sapiens with 18 samples.

Results

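*NASP* and 8 other histone chaperone genes, 9 of the 26941 genes in the count tables, were described in 3 leukemia cell lines after *SOX11* siRNA. *NASP* was chosen by its readout in these same data, where it was slightly lower after *SOX11* siRNA in every line, so its change is given as a description without a test. *ASF1A*, *ASF1B*, *HIRA*, *CABIN1*, *DAXX*, *HJURP*, *CHAF1A* and *CHAF1B* were chosen by function to stand beside it, with earlier results of these data known. All 9 genes were found in the tables and all 9 passed the filter on low counts in every line.

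The 18 RNA samples came from REH, an established B-cell precursor leukemia line with the ETV6-RUNX1 fusion, and from 697 and RCH-ACV, established lines of another B-cell precursor leukemia subtype. In each line 3 samples had received *SOX11* siRNA and 3 had received control siRNA, both at 300 nM by nucleofection, and RNA was taken at 48 h. REH alone stands for its subtype, so line and subtype cannot be told apart there. The sample titles mark these samples as KO, but siRNA left *SOX11* in REH, 697 and RCH-ACV at 56.4, 53.0 and 62.7% of control (edgeR quasi-likelihood test, adjusted p = 1.45e-08, 0.000221 and 2.46e-06).

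Total counts per sample lay between 7039594 and 16592492. A floor set at 3 counts thus stood at 0.181 to 0.426 CPM, or counts scaled to a common library total. It covers counting error only, and lower values can occur. Of 10 B-cell precursor markers, 9 in REH (all but *VPREB1*) and 10 in both other lines averaged over 1 CPM. Their sum was 7023 to 7249 CPM in REH controls and 7647 to 7740 in REH siRNA samples, 5026 to 5468 and 4387 to 4657 in 697, and 5312 to 5526 and 4323 to 5400 in RCH-ACV. None of 5 T cell markers and 1 of 5 myeloid markers averaged over 1 CPM in each line. That myeloid marker was *MPO* in REH (7.42 to 14.9 CPM), but *CSF1R* in 697 (2.33 to 4.66) and RCH-ACV (23.1 to 30.5). The summed myeloid markers had 14.1 to 15.7 CPM in REH controls and 8.75 to 9.96 in REH siRNA samples, 2.33 to 4.07 and 3.39 to 4.66 in 697, and 27.0 to 31.1 and 23.6 to 29.3 in RCH-ACV. The part of these sums in the values below was not tested.

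Histone chaperones bind free histones, keep them soluble and hand them on for assembly into nucleosomes. *NASP* holds a reserve of histones H3 and H4. *ASF1A* and *ASF1B*, a pair of paralogs, take H3-H4 dimers from the import pathway and pass them either to CAF-1, whose large and middle subunits are encoded by *CHAF1A* and *CHAF1B* and which acts at replicating DNA, or to the HIRA complex, which deposits the variant H3.3 outside replication and contains *CABIN1*. *DAXX* deposits H3.3 together with *ATRX* at heterochromatin, and *HJURP* deposits the centromeric variant CENP-A. CAF-1, *ASF1B* and *HJURP* are known to be higher in dividing cells than in resting ones.

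The *NASP* gene lies at chr1:46049518-46084576 on the plus strand of hg19. Its transcripts are known as a long (testicular) and a short (somatic) form, which differ by an exon inside the coding region. In the annotated reference transcript of 15 exons this is exon 6, at chr1:46072993-46074009 (hg19), with 1017 bases against 2208 in the other exons. The edges of that exon are shown because reads that fall between them separate the forms, and the exon is in capitals, the flanking 20 bases of intron in lower case.

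*NASP* exon 6, 5′ edge, chr1:46072973-46073032: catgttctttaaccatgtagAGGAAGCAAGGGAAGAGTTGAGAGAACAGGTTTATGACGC

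*NASP* exon 6, 3′ edge, chr1:46073970-46074029: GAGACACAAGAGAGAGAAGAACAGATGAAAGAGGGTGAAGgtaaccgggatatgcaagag

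*NASP* was the most abundant of the 9 members, and it stood lower after *SOX11* siRNA in each line. CPM values here are scaled by TMM over the 18 samples. In REH the controls had 820.0, 829.8 and 833.7 CPM and the siRNA samples 760.3, 776.7 and 761.6. In 697 the controls had 654.8, 622.6 and 622.1 CPM and the siRNA samples 539.8, 515.6 and 564.6. In RCH-ACV the controls had 600.6, 605.7 and 607.1 CPM and the siRNA samples 532.0, 530.1 and 531.3. The siRNA samples lay below all controls of their own line in each case, which is the pattern that selected the gene. The log2 fold change in REH, 697 and RCH-ACV was -0.10 (SE 0.03), -0.24 (SE 0.04) and -0.19 (SE 0.03), or 93.3%, 84.7% and 87.7% of control. Over the 3 lines the common estimate was -0.18 (SE 0.02). In bulk RNA, less *NASP* mRNA per cell and fewer cells that carry it cannot be told apart.

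**Figure D1:**
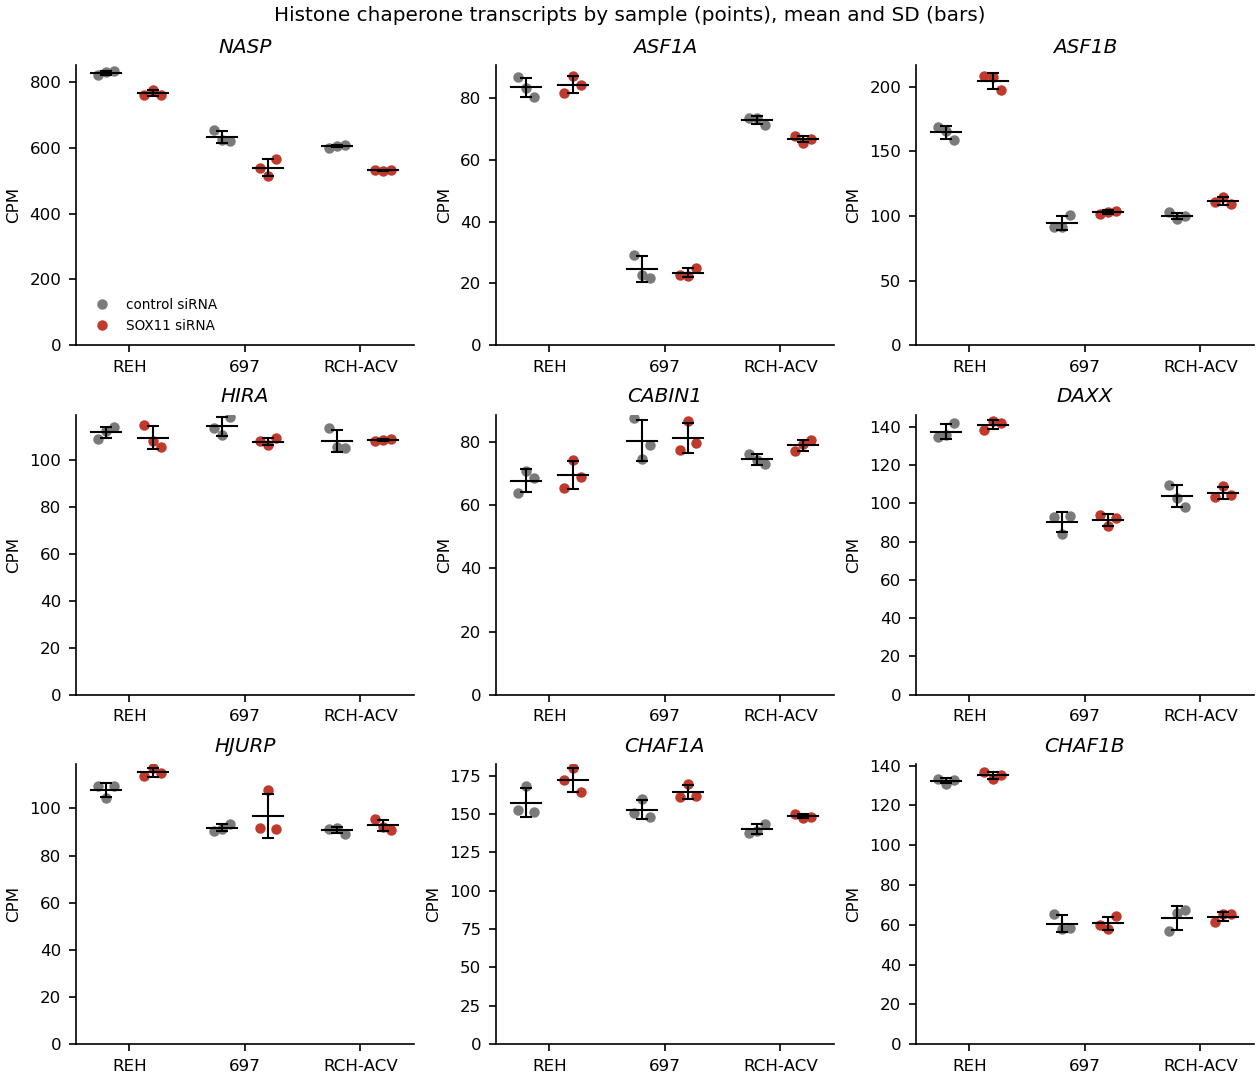
Normalised level (CPM, linear axis from 0) of each of the 9 genes in each of the 18 samples, with grey points for control siRNA and red points for *SOX11* siRNA and with bars for the mean and SD of 3 samples. *NASP* falls from 820.0 to 833.7 CPM in REH controls to 760.3 to 776.7 CPM, and *ASF1A* in 697 is near 24.6 CPM.

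Ordered by level, *NASP* was highest in REH controls, followed by REH siRNA samples, 697 controls and RCH-ACV controls. The siRNA samples of 697, at 515.6 to 564.6 CPM, enclosed those of RCH-ACV, so these neighbours could not be separated. The control groups of 697 and RCH-ACV did not overlap, but their difference of 1.05-fold did not pass the test (adjusted p = 0.111).

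Of the other 8 members, *ASF1B* and *CHAF1A* had calls after *SOX11* siRNA, both higher. After *SOX11* siRNA, *ASF1B* was higher in every siRNA sample than in every control of its line, and in REH it was the one member that passed the test. Its gene lies at chr19:14230324-14247425 on the minus strand of hg19. In REH the controls had 169.2, 166.0 and 159.0 CPM and the siRNA samples 208.7, 207.3 and 197.2, a log2 fold change of 0.32 (SE 0.04, adjusted p = 1.74e-05, edgeR). In 697 the controls had 91.5, 91.8 and 101.1 CPM and the siRNA samples 101.3, 103.3 and 104.1, a log2 fold change of 0.11 (SE 0.06, adjusted p = 0.754). In RCH-ACV the controls had 102.8, 97.7 and 99.8 CPM and the siRNA samples 110.8, 114.9 and 108.9, a log2 fold change of 0.16 (SE 0.05, adjusted p = 0.0658). The siRNA effect on *ASF1B* was not shown to differ between the lines (interaction, adjusted p = 0.326).

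*CHAF1A*, the large subunit of CAF-1, had a common rise over the 3 lines of 0.10 on the log2 scale (SE 0.03, adjusted p = 0.0250) and did not pass the test in any line alone. Its gene lies at chr19:4402637-4445015 (hg19, plus strand). In REH the controls had 152.5, 168.2 and 151.5 CPM and the siRNA samples 171.8, 180.2 and 164.2, and the groups overlapped. In 697 the controls had 150.7, 159.6 and 148.2 CPM and the siRNA samples 160.9, 169.6 and 161.9. In RCH-ACV the controls had 137.5, 138.6 and 143.7 CPM and the siRNA samples 149.9, 147.3 and 148.1. In both of these lines the groups did not overlap. The adjusted p by line was 0.107, 0.792 and 0.306 in REH, 697 and RCH-ACV. The common call is lost (adjusted p 0.0514 to 0.0606) without REH *SOX11* siRNA replicate 2, REH control replicate 1, REH control replicate 3 or RCH-ACV control replicate 1.

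Over the 3 lines *ASF1B* had a common log2 fold change of 0.20 (SE 0.03, adjusted p = 0.000151). Only *ASF1B* and *CHAF1A* of the 8 members had a called common effect, where 8.14% of 14026 genes tested were called. Within lines 1 of 8 was called in REH, where 4.65% of 12787 genes were called. In 697 edgeR called 0 of 8 (0 with unadjusted p under 0.05, and 0 by DESeq2), where 0.559% of 12169 genes were called. In RCH-ACV edgeR called 0 of 8 (2 with unadjusted p under 0.05, *ASF1A* and *ASF1B*, and 0 by DESeq2), where 7.51% of 12963 genes were called. In REH 3 had an unadjusted p under 0.05, namely *ASF1B*, *HJURP* and *CHAF1A*, and DESeq2 called 1.

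The call counts rest on 1 library in places. Without REH *SOX11* siRNA replicate 3 or REH control replicate 2, *CHAF1A* was also called in REH (adjusted p = 0.0447 and 0.0270), and without RCH-ACV *SOX11* siRNA replicate 3, *ASF1B* was called in RCH-ACV (adjusted p = 0.00974). For the 8 members the median log2 fold change in REH, 697 and RCH-ACV was 0.05, 0.01 and 0.03, against -0.0022, -0.0038 and 0.0049 over all genes.

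The groups of 3 did not overlap for 3 of the 8 members in REH (*ASF1B*, *HJURP* and *CHAF1B*), where 21.5% of all genes did not. They did not overlap for 3 of 8 in 697 (*ASF1B*, *HIRA* and *CHAF1A*) against 12.6% of all genes, and for 4 of 8 in RCH-ACV (*ASF1A*, *ASF1B*, *CABIN1* and *CHAF1A*) against 25.8%. For the difference of the siRNA effect between lines edgeR called 0 of 8 (1 with unadjusted p under 0.05), where 0.734% of 14026 genes were called, and the smallest adjusted p was that of *ASF1B*.

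**Figure D2:**
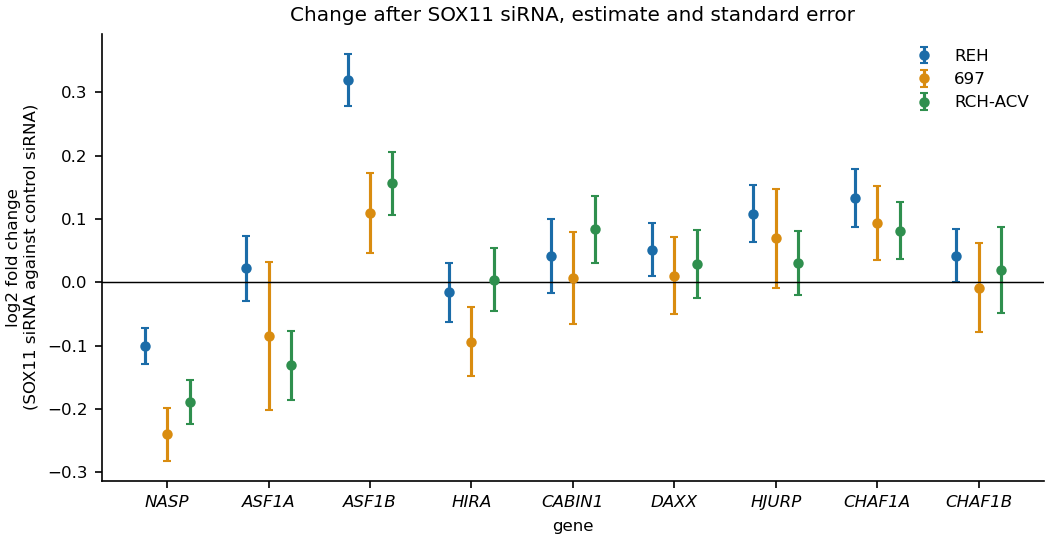
Log2 fold change of *SOX11* siRNA against control siRNA for the 9 genes in each line, with bars for the standard error of the fit (3 against 3 samples). *ASF1B* in REH stands at 0.32, and the 3 estimates of *NASP* lie between -0.24 and -0.10.

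*ASF1A*, the paralog of *ASF1B*, was not called in any line. Its gene lies at chr6:119215316-119230336 (hg19, plus strand). In REH it had 86.7, 83.1 and 80.4 CPM in controls and 81.5, 87.3 and 84.3 in siRNA samples. In 697 it had 29.3, 22.9 and 21.7 CPM in controls and 22.8, 22.4 and 25.1 in siRNA samples. In both of these lines the groups overlapped. In RCH-ACV it had 73.6, 73.5 and 71.2 CPM in controls and 67.7, 65.6 and 66.8 in siRNA samples, which did not overlap and gave a log2 fold change of -0.13 (SE 0.05, adjusted p = 0.167).

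The ratio of the paralogs, *ASF1A* RPKM to *ASF1B* RPKM, had a lower mean in siRNA samples of every line. It contains the *ASF1B* values above and is not independent of them. RPKM are CPM divided by transcript length in kilobases. In REH the ratio was 0.356, 0.347 and 0.351 in controls and 0.271, 0.292 and 0.297 in siRNA samples. In RCH-ACV it was 0.497, 0.523 and 0.495 in controls and 0.424, 0.396 and 0.426 in siRNA samples. In 697 it was 0.222, 0.173 and 0.149 in controls and 0.156, 0.150 and 0.167 in siRNA samples, with overlap. The difference in mean log2 ratio, averaged over the lines, was -0.25 (two-sided exact permutation within lines, p = 0.00125, where the smallest p the 8000 arrangements allow is 0.00025). For REH, 697 and RCH-ACV separately it was -0.30, -0.18 and -0.28, with exact p of 0.1, 0.5 and 0.1 and p adjusted over the 3 lines of 0.15, 0.5 and 0.15. With 3 against 3 samples no p under 0.1 can be reached in 1 line.

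**Figure D3:**
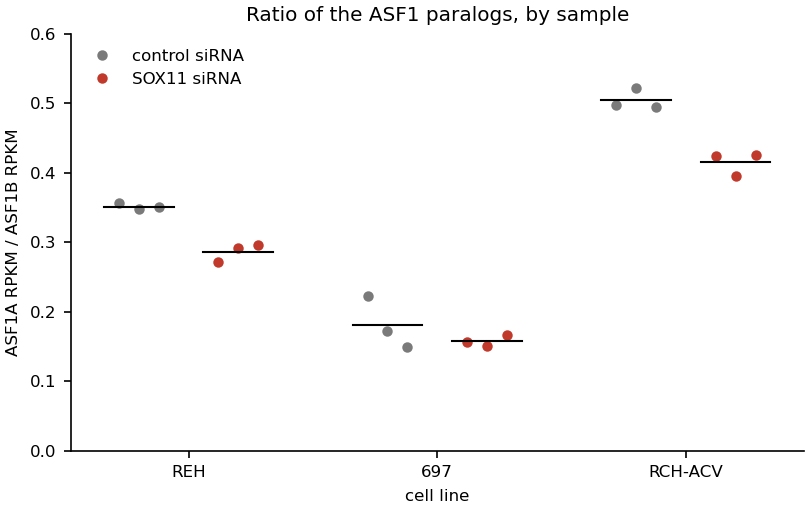
Ratio of *ASF1A* RPKM to *ASF1B* RPKM in each sample (linear axis from 0), with black lines for the mean of 3 samples. The ratio is lower in all 3 siRNA samples than in all 3 controls in REH and RCH-ACV, and the groups overlap in 697.

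Among the members that deposit H3.3, *HIRA* had the narrowest range between lines. Its controls had 109.2 to 114.0 CPM in REH, 110.7 to 118.6 in 697 and 105.1 to 113.6 in RCH-ACV, and its log2 fold changes after siRNA were -0.02, -0.09 and 0.0041 (adjusted p = 0.915, 0.760 and 0.974). *CABIN1* had log2 fold changes of 0.04, 0.0072 and 0.08 and *DAXX* of 0.05, 0.01 and 0.03. None of the 6 values passed the test (adjusted p 0.380 to 0.995), and 95% intervals of the log2 change lay between -0.15 and 0.20 for *CABIN1* and between -0.12 and 0.15 for *DAXX*. *ATRX*, which acts with *DAXX*, and *UBN1*, a subunit of the HIRA complex, were looked up by role outside the rule for named genes. Their log2 fold changes lay between -0.11 and 0.11, with no call.

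*HJURP* in REH, 697 and RCH-ACV showed log2 fold changes of 0.11, 0.07 and 0.03 (adjusted p = 0.205, 0.925 and 0.776). Its cargo gene *CENPA*, also looked up by role, had 0.03, 0.0066 and 0.0030, with no call. *CHAF1B*, the middle subunit of CAF-1, had 0.04, -0.0084 and 0.02 (adjusted p = 0.681, 0.995 and 0.904). Its estimates stood below those of *CHAF1A* in every line, though the difference between the subunits was not tested. *RBBP4*, the small subunit, had -0.0087, -0.02 and -0.10, with no call.

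Control levels differed between lines by up to 3.39-fold, with *ASF1A* and *CHAF1B* furthest apart. Each line is a single culture line, so p-values between control groups measure only the spread between samples of a line. Library batch and line cannot be told apart. *ASF1A* had 83.4 ± 3.16 CPM in REH and 72.8 ± 1.37 in RCH-ACV against 24.6 ± 4.10 in 697 (SD, n = 3), 3.39-fold and 2.94-fold more (edgeR, adjusted p = 5.97e-17 and 3.57e-15). *CHAF1B* had 132.4 ± 1.28 CPM in REH against 60.6 ± 4.06 in 697 and 63.5 ± 5.86 in RCH-ACV, 2.19-fold and 2.10-fold more (adjusted p = 6.42e-15 and 1.99e-14). *ASF1B* was 1.75-fold and 1.65-fold higher in REH than in 697 and RCH-ACV (edgeR, adjusted p = 7.40e-14 and 6.12e-13). *ASF1A* was 1.15-fold higher in REH than in RCH-ACV (adjusted p = 0.00718). Both paralogs had their lowest mean in 697, though for *ASF1B* the difference from RCH-ACV did not pass the test (adjusted p = 0.177). Their estimates differed in how far RCH-ACV stood below REH, which was not tested between the paralogs.

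*NASP* in controls was 1.31-fold higher in REH than in 697 and 1.37-fold higher than in RCH-ACV (edgeR, adjusted p = 1.67e-10 and 9.94e-12), a comparison the choice of the gene did not use. *DAXX* was 1.53-fold and 1.33-fold higher in REH (adjusted p = 5.59e-11 and 7.26e-08), and *HJURP* 1.18-fold and 1.19-fold (adjusted p = 0.000495 and 0.000235). *CABIN1* was the exception, with 1.18-fold more in 697 than in REH (adjusted p = 0.00142), a call lost when library size alone set the scale (adjusted p = 0.0896). For *HIRA* none of the 3 differences passed the test, with 95% intervals of the log2 difference between -0.18 and 0.13. With library size alone *HIRA* was called lower in RCH-ACV than in REH (adjusted p = 0.0358).

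Between 697 and REH controls 7 of 9 members were called (6 lower and 1 higher in 697), where 75.6% of 14026 genes were called. Between RCH-ACV and REH controls 7 of 9 were called, all lower in RCH-ACV, where 73.5% of genes were called. Between RCH-ACV and 697 controls 3 of 9 were called, with *ASF1A* and *DAXX* higher and *CHAF1A* lower in RCH-ACV, where 63.7% of genes were called. The counts against REH are thus near the share of all genes. *CHAF1A* was 1.09-fold lower in RCH-ACV than in 697 (edgeR, adjusted p = 0.0371). That call is lost without 697 control replicate 2 (adjusted p = 0.174), RCH-ACV control replicate 1 (0.105) or RCH-ACV control replicate 2 (0.0792). The same call is lost with DESeq2 (0.0600), with control samples alone in the fit (0.0526), with no filter on low counts (0.0686) and with library size alone (0.312).

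**Figure D4:**
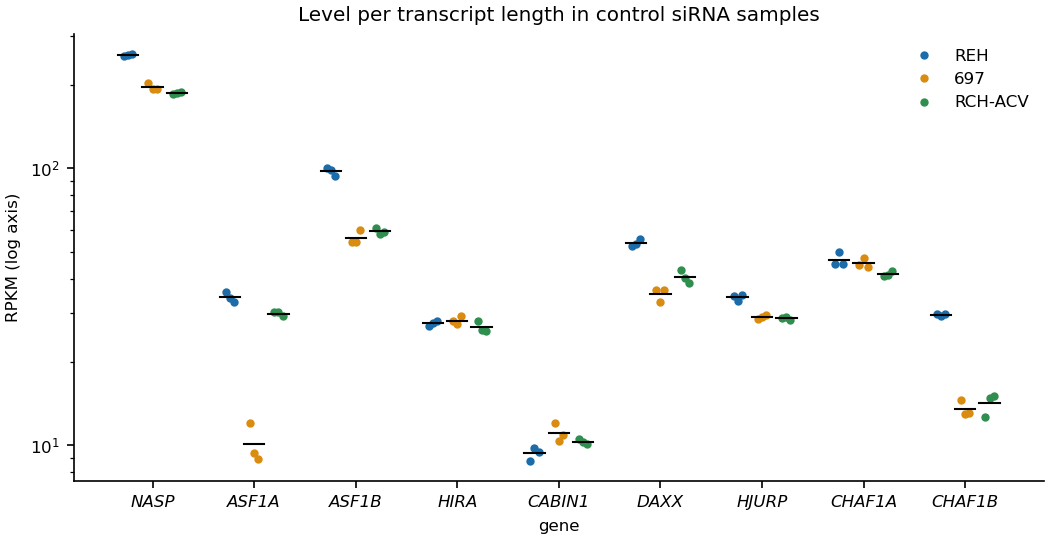
Level per transcript length (RPKM, logarithmic axis) of the 9 genes in the 9 control siRNA samples, with black lines for the mean of 3 samples. *NASP* is highest in each line, at 256.7, 196 and 187 RPKM in REH, 697 and RCH-ACV, and *ASF1A* drops to 10.1 RPKM in 697.

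Per transcript length *NASP* led the members by a wide margin. In REH controls it had 256.7 RPKM, 2.63 times the level of *ASF1B*, the next member, at 97.5. In 697 and RCH-ACV *NASP* had 196 and 187 RPKM, 3.50 and 3.16 times *ASF1B*. In REH *DAXX* had 53.7, *CHAF1A* 46.8, *ASF1A* 34.3, *HJURP* 34.2, *CHAF1B* 29.6, *HIRA* 27.6 and *CABIN1* 9.37 RPKM. *ASF1A* and *HJURP* overlapped there and no other neighbours in that order did. In 697 the order ran through *CHAF1A* at 45.4, *DAXX* at 35.2, *HJURP* at 29.1 and *HIRA* at 28.2 RPKM, the last pair overlapping. *CHAF1B* at 13.6, *CABIN1* at 11.1 and *ASF1A* at 10.1 RPKM followed, with overlap of *CABIN1* and *ASF1A*. In RCH-ACV *CHAF1A* at 41.6 and *DAXX* at 40.5 RPKM overlapped, and the other neighbours did not. Lengths came from the annotated reference transcript of each gene, so such levels between genes are approximate.

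Reads that the longer *NASP* transcript held and the shorter did not made up 5.86 to 9.93% of the reads of the longer. Which deposited transcript is the long and which the short form was taken from general knowledge of the gene and from their counts, since the tables do not name the forms. Set against a further *NASP* transcript, the reads that the longer alone held were 11.4 to 12.9% in all 18 samples, with no lower share in REH. In REH controls the share was 6.08, 6.13 and 6.37%, in 697 controls 9.54, 9.54 and 9.47%, and in RCH-ACV controls 9.29, 9.21 and 9.18%. REH thus had a lower share than both other lines, by 3.32 and 3.04 percentage points. The 3 differences between lines each had an exact permutation p of 0.1, the smallest that 3 against 3 samples allow (adjusted over the 3, 0.1).

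After siRNA the share was 5.98, 6.75 and 5.86% in REH, which overlapped the controls. In 697 it was 7.87, 8.95 and 8.73%, below all controls, and in RCH-ACV 9.54, 9.47 and 9.93%, above all controls. The reads in question numbered 332 to 835 per sample, and the exact 95% binomial intervals of single samples spanned more than these shifts. The width for a single sample does not measure the error of a group mean, so it does not decide whether the shifts exceed counting error. The shifts were not tested. Per base, exon 6 reads stood at 14.3% of the density of the other exons in REH controls, 22.8% in 697 and 22.1% in RCH-ACV. The transcripts can also differ at their ends, which the tables cannot separate from exon 6.

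**Figure D5:**
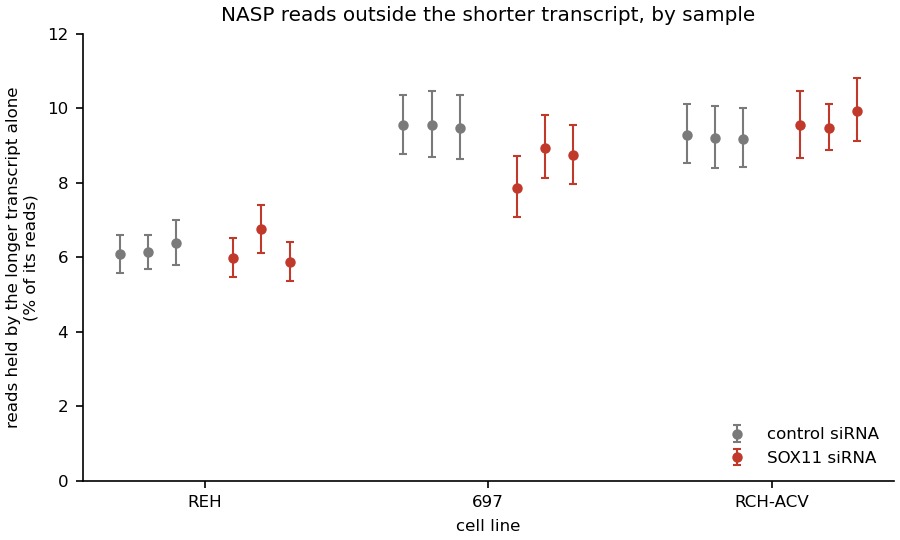
Share of the longer *NASP* transcript's reads that the shorter transcript does not hold, in percent, for each sample, with exact 95% binomial intervals that cover counting error only. REH lies between 5.86 and 6.75%, and 697 and RCH-ACV between 7.87 and 9.93%.

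Genes whose log2 CPM followed that of *NASP* most closely over the 18 samples were *CDK2AP1* (Pearson r = 0.985), *WBP1L* (0.977), *STMN1* (0.968) and *C14orf132* (0.968), among the 9908 genes averaging 10 CPM or more. Of the members *CHAF1B* was nearest, with r = 0.906 at rank 323, followed by *DAXX* (0.813), *ASF1B* (0.791) and *HJURP* (0.712). *CABIN1* ran the other way at -0.752. The 18 points share 3 lines, with *NASP* highest in REH, so r follows the levels of the lines as well as those of the siRNA groups, and it is given as a description.

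Other chaperones and partners, 31 genes such as the FACT and NAP1 families, were mostly not called, with 1 of 31 in REH and in RCH-ACV against 4.65% and 7.51% of all genes. In REH 1 rose, *DEK* (0.10 on the log2 scale, SE 0.03, adjusted p = 0.0395), a chromatin protein that can carry H3.3. In RCH-ACV 1 rose, *TONSL* (0.37, SE 0.08, adjusted p = 0.0130), which reads newly deposited histone H4 at replication forks and which DESeq2 did not call. In 697 edgeR called 0 of 31 (3 with unadjusted p under 0.05, and 0 by DESeq2), where 0.559% of all genes were called. As a common effect it called 0 of 31 (8 with unadjusted p under 0.05, DESeq2 not run), where 8.14% of all genes were called. In REH 8 of 31 and in RCH-ACV 6 of 31 had an unadjusted p under 0.05 by edgeR. The median log2 fold change was 0.03, 0.03 and -0.0085 in REH, 697 and RCH-ACV.

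Of 11 listed replacement histone genes, edgeR called 0 of 9 tested in REH (2 with unadjusted p under 0.05, and 0 by DESeq2). In 697 it called 0 of 8 (0 and 0). Of all genes 4.65% and 0.559% were called in these lines. In RCH-ACV 2 of 9 fell, *MACROH2A2* (-0.26, SE 0.05, adjusted p = 0.00566) and *H3-3B* (-0.15, SE 0.04, adjusted p = 0.0188), where 7.51% of all genes were called. As a common effect 1 of 10 tested fell, *MACROH2A2* (-0.26, SE 0.07, adjusted p = 0.0142), where 8.14% of all genes were called. Among the fits of single lines it passed the filter on low counts in RCH-ACV alone. Its common estimate thus rests on the RCH-ACV fall and does not show a fall in the other lines. *MACROH2A2* encodes a variant linked to silent chromatin, and *H3-3B* is one of the genes for H3.3, the cargo of *HIRA* and *DAXX*. *H3-3A*, a further listed H3.3 gene, had -0.74 (SE 0.33), 0.01 (SE 0.17) and -0.19 (SE 0.27) in REH, 697 and RCH-ACV, with no call. *H3-3B* has near-identical copies in the genome, so its counts are uncertain. The list had a median log2 fold change of 0.0081, 0.0027 and -0.07 in REH, 697 and RCH-ACV.

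The 26 S phase genes were listed because CAF-1 and ASF1 act at replication forks. Their median log2 fold change in REH, 697 and RCH-ACV was 0.10, 0.02 and -0.0073, against -0.0022, -0.0038 and 0.0049 over all genes. In REH 25 of 26 estimates were above 0, against 15 in 697 and 10 in RCH-ACV. In REH 7 rose, among them *FEN1* (0.20, adjusted p = 0.00136), the flap endonuclease, and *TK1* (0.24, adjusted p = 0.00193), thymidine kinase. DESeq2 called 4 in REH. In 697 edgeR called 0 of 26 (1 with unadjusted p under 0.05, and 0 by DESeq2), where 0.559% of all genes were called. In RCH-ACV 2 rose, *TK1* (0.20, adjusted p = 0.0254) and *POLD1*, and *CCNE2*, cyclin E2, fell (-0.33, SE 0.06, adjusted p = 0.00167), while DESeq2 called 1 of the 26. Of all genes 4.65% were called in REH and 7.51% in RCH-ACV, so 3 of 26 in RCH-ACV is near the background. As a common effect 2 of 26 rose, *FEN1* and *TK1*, where 8.14% of all genes were called. The part of these genes in the rise of *ASF1B* in REH was not tested.

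Promoters are shown for the members with a called common effect and for *NASP*, as 250 bases before and 50 after the RefSeq start (GRCh38.p14). RefSeq gave a promoter for 8 of the 9 members, and *DAXX* is only named. CCAAT, or its complement ATTGG, is in capitals.

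*ASF1B*, chr19:14136540-14136839, minus strand: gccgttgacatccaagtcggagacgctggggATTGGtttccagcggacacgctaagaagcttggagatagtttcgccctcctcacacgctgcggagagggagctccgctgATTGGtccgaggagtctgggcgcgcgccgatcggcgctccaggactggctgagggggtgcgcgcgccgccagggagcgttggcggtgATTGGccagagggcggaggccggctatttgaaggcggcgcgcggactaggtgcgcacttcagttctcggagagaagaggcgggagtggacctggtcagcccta

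*CHAF1A*, chr19:4402390-4402689, plus strand: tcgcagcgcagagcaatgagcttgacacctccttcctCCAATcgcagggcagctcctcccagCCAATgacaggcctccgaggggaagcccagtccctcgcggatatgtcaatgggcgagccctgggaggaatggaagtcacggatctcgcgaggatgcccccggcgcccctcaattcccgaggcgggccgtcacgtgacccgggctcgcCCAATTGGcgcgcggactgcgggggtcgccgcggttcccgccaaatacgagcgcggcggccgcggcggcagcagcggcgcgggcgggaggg

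*NASP*, chr1:45583791-45584090, plus strand: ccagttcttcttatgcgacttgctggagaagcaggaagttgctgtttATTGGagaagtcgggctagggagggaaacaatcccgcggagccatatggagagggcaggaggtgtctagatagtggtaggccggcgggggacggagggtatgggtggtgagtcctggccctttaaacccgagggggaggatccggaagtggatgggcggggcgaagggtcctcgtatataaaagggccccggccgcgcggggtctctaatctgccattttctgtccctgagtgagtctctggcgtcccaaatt

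Counted on both strands, *ASF1B* held 3 matches, *CHAF1A* 4 (of which 2 overlap on opposite strands), *HJURP* 4, *CABIN1* 2, and *ASF1A* and *NASP* 1 each, while *HIRA* and *CHAF1B* held 0. At least 1 match was found in 34.6% of 35116 promoters and at least 3 in 3.26%. E2F-type words (TTTCGCGC, TTTGGCGC, TTTCCCGC or TTTGCCGC), in 3.31% of promoters, were found in *HIRA* alone. Its match in capitals lies within gtggggagcggTTTCCCGCcggggcgattt at chr22:19431760-19431789, minus strand. SOX-type words (AACAAAG or AACAATG), in 8.22% of promoters, were found in *ASF1A* alone of the 8. The word GTGACGC, picked earlier from genes lower after siRNA in these data, was in none of the 9 members' 3′ UTRs and in no mRNA of theirs but that of *CABIN1*, against 1.36% of 3′ UTRs and 6.52% of mRNAs. With shares this low, 9 genes are too few to show that the word is lacking in them. Only the exact words given were searched, so variants of them were not counted. A match describes letters and does not show a binding site.

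Some members share exon bases with a neighbour in the annotation, and whether counting used strand is not stated in the sources used here. *ASF1A* shares 205 bases with *MCM9* on the opposite strand, and *CHAF1B* 89 with *MORC3* and *HIRA* 2784 with *C22orf39* on the same strand. *ASF1B* and *CHAF1A* share 70 and 81 bases with noncoding genes on the opposite strand, and *DAXX* 441 with an unnamed gene on its own strand. *NASP* and *HIRA* each have 1 annotated pseudogene copy, so part of their counts may be shared with it.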

How the data were processed

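RNA of 18 samples was sequenced from poly(A)-selected, stranded libraries. The authors trimmed and quality-checked reads (FastQC 0.10.1), aligned them to hg19 (STAR 2.5.3a), dropped reads with more than 2 places, and used HOMER to count the rest per RefSeq transcript. The deposited values are raw counts, without normalization, in 1 table per cell line, with 0 columns of other samples. Of 50678 transcripts 98.0% were matched to a symbol, and per gene the transcript with the highest total was kept, because overlapping transcripts share reads. The members and gene lists were chosen with earlier results of these data known.

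edgeR 4.0.16 (R 4.3.3) was used with TMM, filterByExpr and the two-sided quasi-likelihood F-test, with Benjamini-Hochberg adjustment over all genes tested and calls at 0.05. Each line was fitted alone. The common effect, the interaction and the control pairs used all 18 samples. *NASP* was left untested for siRNA. Alternatives were other scalings, filters, DESeq2 1.42.0, other transcripts, a stricter threshold of 0.01, the replicate number and leaving out samples. Single values used exact permutation (scipy 1.17.1). Replicates are stated as biological.

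Named genes were the 9 members, list genes called in the same direction in 2 lines or with the 2 smallest p per line and list, the 5 genes most like *NASP*, of which 1 is not reported here, and *SOX11*. The fits were tested on counts simulated once per comparison, where the share of false calls ran above the nominal level in all comparisons but that of the controls.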

Additional observations from a re-analysis of the deposited data

Results flagged for a closer look

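The siRNA effect on *CCNE2* differed between the lines (interaction, edgeR quasi-likelihood test, adjusted p = 0.0120). Its log2 fold changes for REH, 697 and RCH-ACV were 0.19 (SE 0.05), -0.02 (SE 0.10) and -0.33 (SE 0.06). In CPM and in the same order of lines the controls had 80.7 ± 2.88, 47.5 ± 0.968 and 85.7 ± 2.98, and the siRNA samples 91.4 ± 0.962, 47.1 ± 6.58 and 68.4 ± 2.75 (SD, n = 3).

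The share of *NASP* reads outside the shorter transcript changed in opposite directions in a pair of lines. It changed by -1.0 percentage points in 697, with all 3 siRNA samples below all 3 controls, and by 0.421 in RCH-ACV, with all 3 above. In REH it changed by 0.0052. The difference between the lines was not tested.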

How the results depend on the processing

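Counts of called members kept within 1.5 times their value under other scalings, filters, DESeq2, transcripts and thresholds. The members behind a count could change. With library size alone *CHAF1A* was called lower in 697 than in REH (edgeR, adjusted p = 0.00327), while *CABIN1* was lost. Between RCH-ACV and 697 *ASF1B* was then called higher in RCH-ACV (adjusted p = 0.0185), while *CHAF1A* was lost. Leaving out single samples gave 1 to 2 in REH, 0 in 697, 0 to 1 in RCH-ACV, 1 to 2 for the common effect and 0 for the interaction. Between controls it gave 7 for 697 against REH, 7 to 8 for RCH-ACV against REH and 2 to 3 for RCH-ACV against 697. The difference in the ASF1 ratio ranged from -0.30 to -0.20 without single samples.

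The *NASP* share without single samples ranged, in percent, from 6.10 to 6.25 in REH controls, 5.92 to 6.36 in REH siRNA samples, 9.50 to 9.54 and 8.30 to 8.84 in 697, and 9.19 to 9.25 and 9.51 to 9.74 in RCH-ACV. The *NASP* log2 fold change ranged over all settings from -0.11 to -0.09 in REH, -0.27 to -0.20 in 697 and -0.19 to -0.18 in RCH-ACV.

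Of 1103 single-gene values under alternatives, 1059 kept direction and call, 12 lost a call, 9 gained one, 1 moved by more than the spread between replicates and 22 turned sign, none of them called. The cause was not tested. Most of these came from leaving out single samples, which gave these ranges. In REH *ASF1A* had -0.0019 to 0.055, *CABIN1* -0.0039 to 0.083 and *HIRA* -0.057 to 0.018. In 697 *ASF1A* had -0.17 to 0.056, *CABIN1* -0.037 to 0.065, *CHAF1B* -0.044 to 0.042, *DAXX* -0.024 to 0.043 and *HJURP* -0.0095 to 0.12. In RCH-ACV *CHAF1B* had -0.056 to 0.067, *DAXX* -0.0098 to 0.073 and *HIRA* -0.017 to 0.043, and the common effect of *CHAF1B* had -0.0030 to 0.033. In 697 *CHAF1B* also turned with library size alone (0.0036) and with no filter (0.0055). With library size alone the difference between 697 and REH controls shifted by -0.12 for all members alike, which turned *HIRA* (-0.098), and *HJURP* turned between RCH-ACV and 697 (0.047).

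Same-numbered samples did not pair, with correlations of -0.228 to 0.256 of their deviations from group means. With the replicate number as a block, the pairing left the calls at 1, 0 and 0 in REH, 697 and RCH-ACV, at 2 for the common effect, 0 for the interaction and 7, 7 and 3 between controls. Precision is limited by 3 samples a group, and *ASF1A* in 697 rests on 157 to 237 reads a sample.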
